A study of Mus musculus with 18 samples.

Results

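The start regions of 10 imprinted genes that carry methylation on the maternal copy were followed through the loss of Dnmt1 in mouse embryonic stem cells. The members were Plagl1, Mest, Peg3, Snrpn, Grb10, Impact, Nnat, Peg10, Zrsr1 and Nap1l5. They were 10 of the 37252 genes of the GENCODE vM1 annotation of mouse genome build NCBIM37. They were chosen by name as genes known for maternal methylation, with no value in the rule, although earlier results of these data were known when the list was made. For each gene, all bisulfite calls within 2 kb either side of the annotated gene start were added up, and the same was done in bins of 500 bp.

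The series held 18 whole-genome bisulfite libraries of embryonic stem cells, all given the background strain E14 in the labels. The 9 control libraries had the genotype Wildtype, and the 9 Dnmt1 KO libraries came from cells with an induced deletion of Dnmt1, which codes for the enzyme that copies CpG methylation onto the new strand after replication. Days 1, 3, 9 and 11 had 2 libraries per genotype and day 6 had 1, and nothing in the labels says whether the paired libraries came from separate cultures. Cells were grown in serum with LIF, and the deletion was induced by a tamoxifen-activated Cre in cells with a floxed Dnmt1 that the methods give as C57BL/6. On any 1 day a difference between lines and the effect of the deletion thus cannot be told apart. Comparisons of days within Dnmt1 KO use no control level, although control libraries enter the estimate of spread in their test. Libraries held 7122177 to 11094415 calls on chromosomes 1 to 19 and X, or 1.19 to 1.24 calls per listed cytosine. In the longest stretch of Dnmt1 that lost its reads, at chr9:20744012-20745970, control libraries had 6 to 29 calls each, both Dnmt1 KO day 1 libraries had 2, and the 7 Dnmt1 KO libraries of days 3 to 11 had 0. Among 5 stem cell markers, the starts of Pou5f1, Sox2 and Zfp42 were at 2.24%, 0.563% and 11.6% methylation in control, whereas Nanog was at 26.7% and Esrrb at 78.7%.

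Imprinted genes are expressed from the copy of only 1 parent. At most of them the choice rests on a CpG-rich control region that is methylated in the egg and not in sperm, and that keeps this difference through the erasure of methylation in the early embryo. The zinc finger protein ZFP57 binds a methylated hexamer in these regions and recruits KAP1 to the methylated copy, while Dnmt1 renews the mark at each cell division. A region in which all maternal copies are methylated and all paternal copies are not should show calls near the middle of the scale, and reads that are either methylated or unmethylated along their length.

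Stretches of 5 such regions are shown because they hold this hexamer. Each is the stretch of 150 bases with most matches of the ZFP57 hexamer in its gene, taken from bins with 30% to 70% methylation in control whatever the level of the stretch itself, inside the gene and outside every annotated exon. They are given 5′ to 3′ on the strand of the gene, from NCBIM37, with matches of TGCCGC or its reverse complement GCGGCA in capitals.

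Peg3, chr7:6682773-6682922, minus strand: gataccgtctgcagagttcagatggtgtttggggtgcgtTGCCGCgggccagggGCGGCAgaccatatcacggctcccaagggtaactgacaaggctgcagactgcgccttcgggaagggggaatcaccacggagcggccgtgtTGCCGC

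Plagl1, chr10:12810832-12810981, plus strand: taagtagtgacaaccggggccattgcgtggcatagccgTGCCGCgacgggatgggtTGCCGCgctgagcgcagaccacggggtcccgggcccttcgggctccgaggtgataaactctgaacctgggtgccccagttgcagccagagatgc

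Snrpn, chr7:67149631-67149780, minus strand: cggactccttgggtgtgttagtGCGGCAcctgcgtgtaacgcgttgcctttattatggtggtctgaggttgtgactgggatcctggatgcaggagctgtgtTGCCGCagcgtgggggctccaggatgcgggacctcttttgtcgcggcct

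Mest, chr6:30687547-30687696, plus strand: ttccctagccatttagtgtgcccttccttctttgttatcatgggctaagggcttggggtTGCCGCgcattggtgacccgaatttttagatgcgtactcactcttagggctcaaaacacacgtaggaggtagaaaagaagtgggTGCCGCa

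Peg10, chr6:4697906-4698055, plus strand: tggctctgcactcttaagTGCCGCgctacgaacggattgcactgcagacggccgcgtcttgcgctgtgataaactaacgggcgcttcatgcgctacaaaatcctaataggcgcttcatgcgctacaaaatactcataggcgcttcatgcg

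The Peg3 stretch holds 12 CpGs and 3 matches and lies 210 to 359 bp after the gene start. Its calls were 34.7% methylated in control (17 of 49 calls, 6 libraries with calls) and 0 of 39 calls were methylated in Dnmt1 KO days 6 to 11 (95% exact interval 0% to 9.03%). The Plagl1 stretch, with 13 CpGs and 2 matches, had 6 of 56 methylated calls in control, fewer than its 500 bp bin as a whole (95 of 187), and 0 of 23 in Dnmt1 KO days 6 to 11. The Snrpn stretch lies at an internal start of the gene and not at the gene start. With 10 CpGs and 2 matches, it had 6 of 11 methylated calls in control, from 2 libraries, and 1 of 19 in Dnmt1 KO days 6 to 11. The Mest stretch, also at an internal start, had 7 of 24 methylated calls in control and 0 of 7 in Dnmt1 KO days 6 to 11. The Peg10 stretch did not show a lower level in Dnmt1 KO, at 6 of 50 calls in control (95% exact interval 4.53% to 24.3%) and 13 of 78 in Dnmt1 KO days 6 to 11 (9.18% to 26.8%). Exact intervals here and below cover counting error only, and since 1 read gives several calls they are narrower than the error between libraries.

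The hexamer was present in 8 of the 10 windows, with a median of 4.5 matches over the 10. Peg3 and Nnat had 8 matches each, and the windows of Mest and Snrpn had 0. Of all 37252 gene start windows 43.1% held a match, as did 63.3% of the windows tested below. Of the 41 matches in the 10 windows, 32 lay in bins with at least 20 control calls and 30% to 70% methylation in control. Such bins made up 37.5% of all bins of these windows, and 30 of the 61 bins with at least 20 control calls. The hexamer itself holds a CpG, so a share of bins does not measure enrichment. A match is a run of letters and not a measured binding site.

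In control cells the windows of Plagl1, Peg3, Nnat, Peg10, Zrsr1 and Nap1l5 were at intermediate methylation. With the 9 libraries pooled, Nap1l5, a retrogene of the nucleosome assembly protein family, was at 64.5% (95% exact interval 58.6% to 70.1%). Plagl1, a zinc finger transcription factor, was at 62.3%, and Nnat, which codes for the small membrane protein neuronatin, was at 56.0%. Peg10, a placental gene derived from a retrotransposon, was at 44.5%. Zrsr1, a retrogene related to a splicing factor, was at 37.9%, and Peg3, a zinc finger protein gene, was at 36.1% (32.0% to 40.3%). These 6 levels lay between 30% and 70%, as did 21.7% of the 12071 gene starts with enough calls to be tested.

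Impact, which codes for an inhibitor of the eIF2 alpha kinase GCN2, was lower at 25.9%, and Grb10, an adaptor that dampens insulin receptor signalling, was lower still (120 of 633 calls, 95% exact interval 16.0% to 22.2%). Mest, a gene of the alpha/beta hydrolase family, and Snrpn, which codes for the spliceosomal protein SmN, were at 88.2% and 87.3%. Neither of the latter had dense CpGs in its window, which held 43 CpGs for Mest and 17 for Snrpn, against 88 to 232 for the other 8 genes.

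Levels differed widely between control libraries. For Peg3, with 53 to 72 calls per library, control libraries ranged from 14.5% to 67.9% with a median of 38.7%. For Grb10 the 5 control libraries with 58 to 154 calls were at 6.90% to 16.9%, and the 4 with 17 to 29 calls were at 58.8% to 77.8%. The Grb10 window was uneven, since the bin from 0 to 500 bp was at 45.1% in control, whereas the 3 bins from 500 to 2000 bp were at 1.83% to 5.97% and hold 41 to 82 CpGs each. Control day 9 replicate 1 was the highest library when the 10 windows were summed, at 68.0%, and the other 8 control libraries were at 34.3% to 52.2%. Without it the control level of the 10 windows was 41.6% in place of 44.5%.

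**Figure D1:**
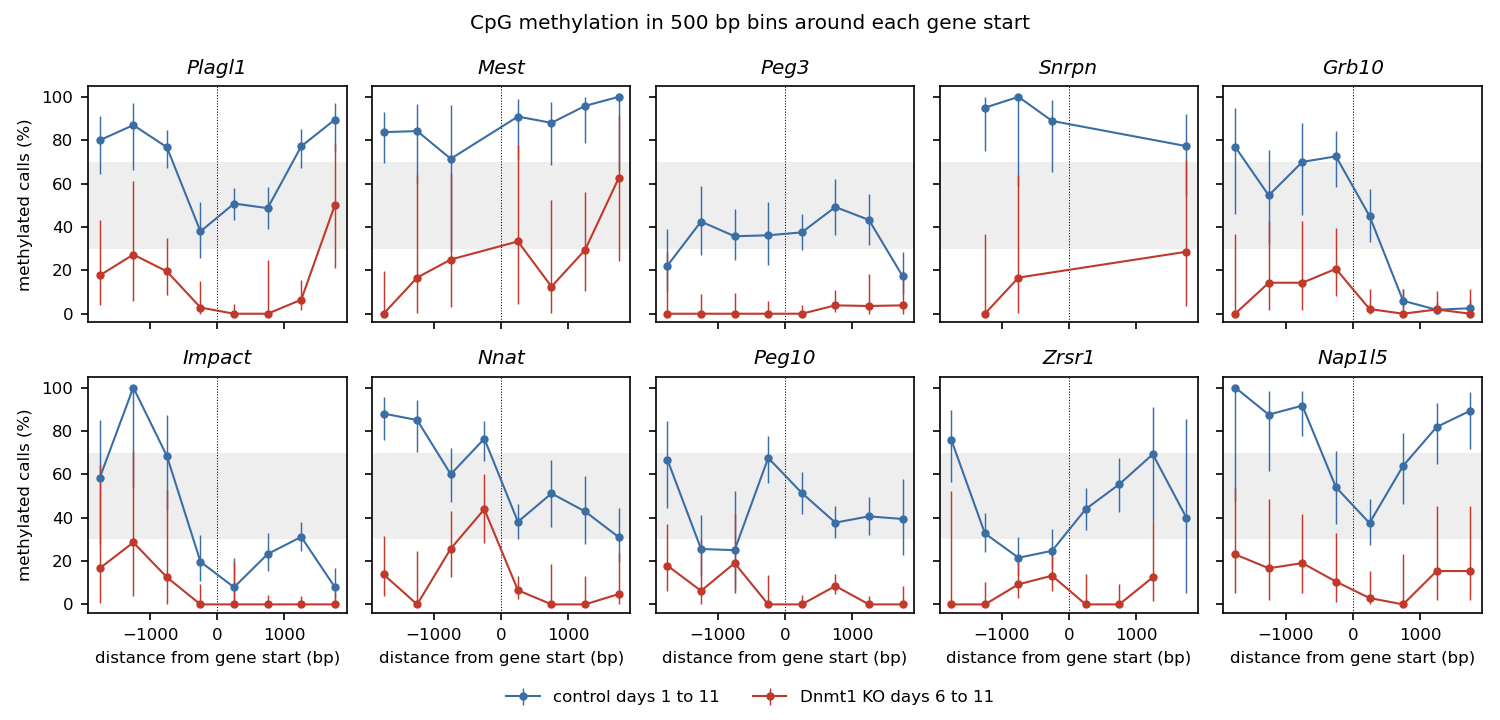
Methylated share of calls (%) in 500 bp bins by distance from each gene start (bp), for all control libraries pooled (blue) and Dnmt1 KO libraries from day 6 on pooled (red), with 95% exact intervals; bins with under 5 calls are not drawn and the grey band marks 30% to 70%. The control bins of Peg3 from 1500 bp before to 1500 bp after the start lie in the band, and its Dnmt1 KO bins there reach 3.85% at most.

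Within the windows, the place of the intermediate level and its relation to CpG density differed between genes. Calls at CpGs with 25 or more CpGs within 250 bp were lower than the other calls at Plagl1 (47.1% against 75.1% in control), Nap1l5 (35.9% against 78.6%), Nnat (42.1% against 63.7%), Zrsr1 (25.4% against 53.0%) and Grb10 (2.53% against 55.1%). They were close to the other calls at Peg10 (45.4% against 42.3%) and Impact (24.4% against 28.4%), and higher at Peg3 (46.3% against 31.2%). These values pool days that differ and are descriptions with no test. At Plagl1, for example, such dense CpGs had 0 of 47 methylated calls on control day 1 and 28 of 37 on control day 11. At Plagl1 the 3 bins from 500 bp before to 1000 bp after the start were at 37.9%, 50.8% and 48.7%, and the 5 bins outside them were at 76.8% to 89.5%. At Nap1l5, which lies in an intron of Herc3, the bin that begins at the start was at 37.5% and the bin 1000 to 500 bp before it was at 91.7% (33 of 36 calls). Peg3 stayed in the range over 6 neighbouring bins, from 35.7% to 49.2%. In Peg10 the 5 bins from 500 bp before to 2000 bp after the start were at 37.7% to 67.5%. Among bins with at least 20 control calls Impact reached the range in 1, 1000 to 1500 bp into the gene, at 31.1% (61 of 196 calls), while the bin at its start was at 7.89%.

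Of the 61 bins of the 10 windows with at least 20 control calls, 30 were at 30% to 70%, and they came from 8 genes. Over all gene starts 19.6% of 148746 such bins were in this range. In Dnmt1 KO days 6 to 11, 24 of the 30 bins had at least 20 calls. Their median was 0%, 14 were at 0% and 22 were at or below 10%. Of the 11443 bins of all gene starts chosen in the same way, 56.7% were at or below 10% and the median was 9.09%. The highest of the 24 was a bin of Nnat, 1000 to 500 bp before the start, which fell from 60.0% to 25.7% (9 of 35 calls). The next bin of Nnat, up to its start, was above the range in control at 76.4%. In Dnmt1 KO it was at 9 of 63 calls on day 1, 2 of 25 on day 3 and 18 of 41 (43.9%) on days 6 to 11, so its level followed no order of days.

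The gene starts of Mest and Snrpn lack dense CpGs, and the dense CpGs at the Grb10 gene start were nearly unmethylated in control. Each of these genes has further annotated transcript starts inside the gene record, and 4 merged windows of 2 kb either side of these held a CpG with at least 20 others within 250 bp. The windows were picked after the values at the gene starts had been seen, so their levels are descriptions. At Mest, chr6:30686050-30694088 was at 52.4% in control (407 of 776 calls) and 7.55% in Dnmt1 KO days 6 to 11 (37 of 490). The latter was 4.70% without day 11 replicate 2 and 12.5% without day 11 replicate 1. A neighbouring, less dense Mest window was at 62.6% and 10.5%. At Snrpn, chr7:67148043-67152042 was at 35.8% in control (69 of 193) and 2.88% in Dnmt1 KO days 6 to 11 (3 of 104), or 1.25% without the day 6 library. At Grb10, chr11:11924328-11929974 was at 54.5% (277 of 508) and 3.12% (10 of 321). All 3 genes thus had an intermediate level at an internal start, whereas the gene start windows of Mest and Snrpn held no bin in that range and that of Grb10 held 3.

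**Figure D2:**
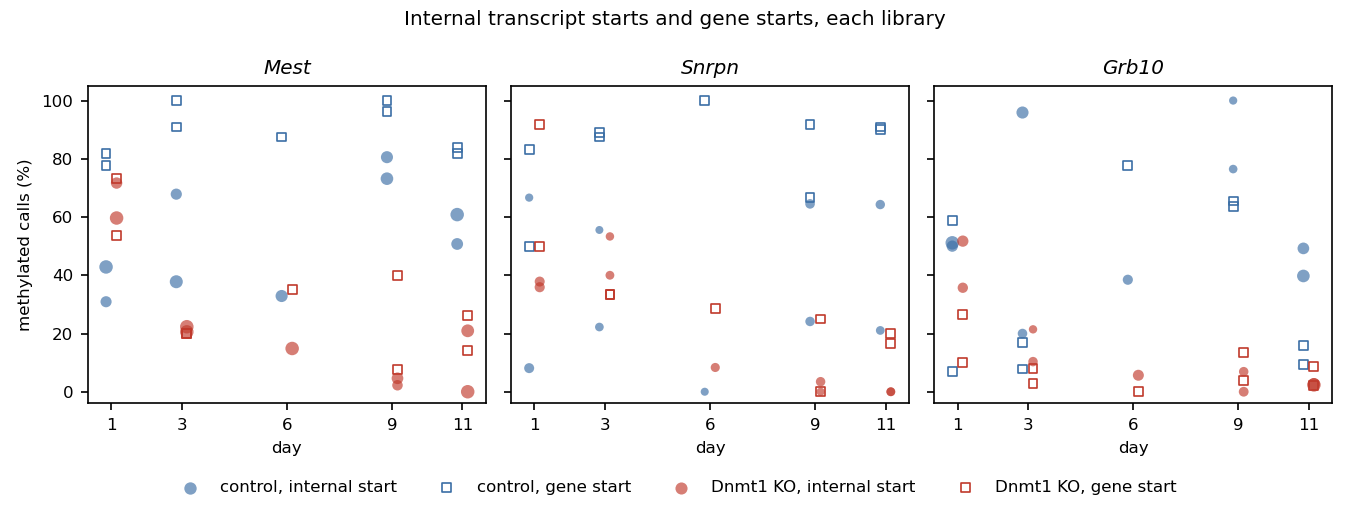
Methylated share of calls (%) by day in each library at the densest internal start of Mest, Snrpn and Grb10 (filled circles, larger with more calls up to 100) and at the gene start (open squares), for control (blue) and Dnmt1 KO (red). The filled circles of Mest lie at 30.9% to 80.6% in the 9 control libraries and at 0% to 20.9% in Dnmt1 KO from day 6.

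Among the internal starts, the 9 control libraries of Mest ranged from 30.9% to 80.6%. From day 6 on, its 5 Dnmt1 KO libraries were at 14.9%, 4.62%, 2.22%, 0% and 20.9%, all below the lowest control library. At Grb10 the control libraries ranged from 20% to 100% and the 5 late Dnmt1 KO libraries were at 5.66%, 6.90%, 0%, 2.34% and 2.60%, again without overlap. At Snrpn, with 9 to 37 calls per control library, control ranged from 0% to 66.7% and the 5 late Dnmt1 KO libraries from 0% to 8.33%, so the groups overlapped. At day 3 the Snrpn internal start was at 53.3% and 40% in the 2 Dnmt1 KO libraries, against 20.6% and 22.3% at Mest.

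An intermediate level can come from a mixture of fully methylated and unmethylated copies or from copies that are each methylated in part. To separate these readings, pairs of neighbouring CpGs were taken on the same strand of 1 library, at most 50 bp apart. Each CpG had 1 call, so that both calls most likely came from 1 read. Calls were not assigned to a parental copy, so a mixture of copies within cells and a mixture between cells cannot be told apart. In the 10 windows 7.32% of 2542 control pairs were discordant, with 1 methylated and 1 unmethylated call, where unlinked calls at the same levels would give 37.8%. In the bins at 30% to 70% this was 6.70% of 1538 pairs in the 10 windows, where unlinked calls would give 47.4%. In such bins of all gene starts tested it was 29.8% of 223532 pairs, where unlinked calls would give 47.1%. In these bins the share was lower in the 10 windows than over all gene starts tested in 9 of 9 control libraries, at 3.74% to 12.7% against 29.1% to 30.7%.

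When only such bins with at least 20 CpGs were kept, 5.60% of 1267 pairs were discordant in the 10 windows and 26.8% of 26756 over all gene starts tested. Over whole windows, with bins of any level and density, discordant pairs were fewest at Peg3 (3.57% of 308 pairs, against 44.8% if unlinked), Peg10 (3.71% of 377) and Impact (3.82% of 314). They were more frequent at Plagl1 (11.7% of 411 pairs), Nnat (10.5% of 315) and Nap1l5 (10.1% of 129). At the internal starts, 7.87% of 394 pairs were discordant at the denser Mest window, 8.13% of 283 at Grb10 and 3.09% of 97 at Snrpn. The less dense Mest window had 23.4% of 141.

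Pooled over the 10 windows, runs of at least 3 linked calls showed the same split. In the bins at 30% to 70%, control libraries gave 251 such runs in the 10 windows, of which 81 were methylated throughout, 120 were unmethylated throughout and 50 (19.9%) were mixed. Over all gene starts tested, 54.8% of 53399 runs in such bins were mixed. At Peg3, 18 runs were methylated, 39 unmethylated and 6 mixed over its whole window. The split was not equally clear at all members. Over whole windows with such runs, the mixed share went from 9.52% at Peg3 to 43.8% at Nap1l5 (7 of 16 runs). It was 33.8% at Plagl1 and 27.0% at Grb10. At internal starts, 11 of 33 runs were mixed at Grb10 and 13 of 28 at the less dense Mest window. At the denser internal start of Mest the numbers were 33 methylated, 32 unmethylated and 15 mixed.

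**Figure D3:**
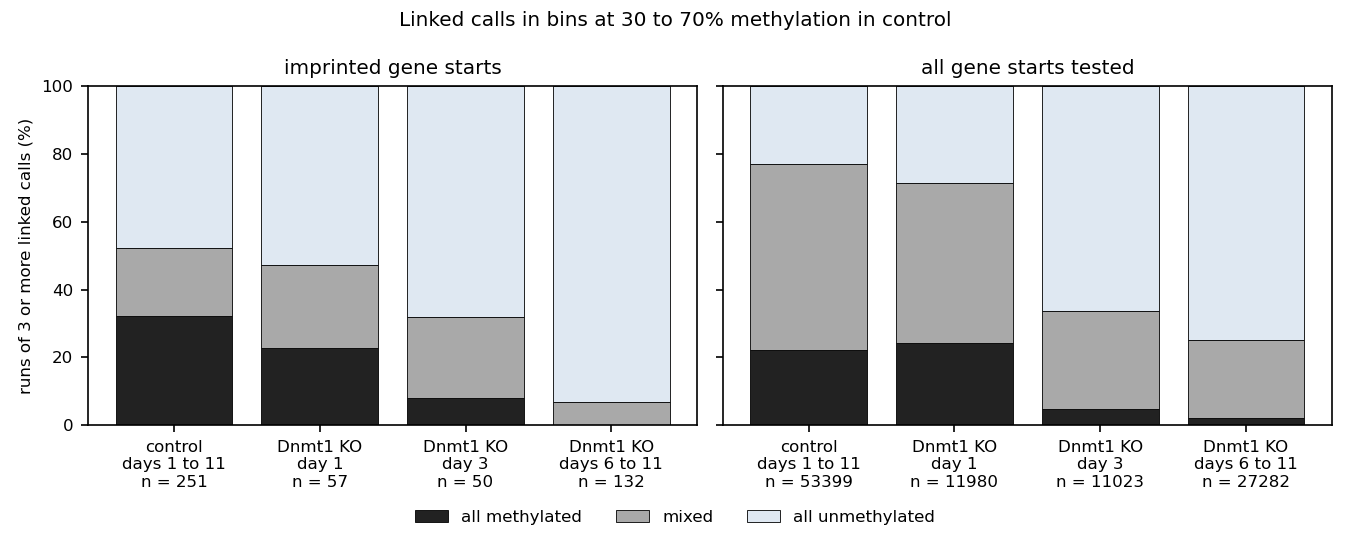
Share of runs of at least 3 linked calls (%) that were methylated throughout (black), mixed (grey) or unmethylated throughout (light), in bins at 30% to 70% methylation in control, for the 10 imprinted gene starts (left) and all gene starts tested (right); n is the number of runs. The methylated runs of the imprinted starts go from 32.3% of 251 in control to 0% of 132 in Dnmt1 KO days 6 to 11.

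In Dnmt1 KO cells runs methylated throughout made up a smaller share at each later time. At day 1 the bins gave 13 methylated, 30 unmethylated and 14 mixed runs, and at day 3 they gave 4, 34 and 12. At days 6 to 11 there were 0 methylated, 123 unmethylated and 9 mixed runs. Over the whole windows, other bins included, 6 of 217 runs were still methylated at days 6 to 11, of which 2 were at Nnat. Over all gene starts tested, 2.01% of 27282 runs in such bins were still methylated throughout at days 6 to 11 and 23.1% were mixed. At days 6 to 11 the denser internal start of Mest had 1 methylated, 32 unmethylated and 7 mixed runs.

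Summed over the 10 windows, methylation was inside the control range at day 1 and at most 8.88% in each library from day 6. The 2 Dnmt1 KO libraries of day 1 were at 35.2% and 36.6%, and the control libraries at 34.3% to 68.0%. At day 3 they were at 17.1% and 19.1%, and at day 6 the library was at 7.38%. At day 9 they were at 8.88% and 4.36%, and at day 11 at 6.08% and 6.78%. All 7 libraries from day 3 on lay below the lowest control library. The calls of the 12071 gene starts tested below, summed, were at 50.2% to 59.2% in control libraries. In Dnmt1 KO they were at 30.1% in both day 3 libraries and 22.7% to 27.3% from day 6. The median of these gene starts was lower than the sum, at 21.8% to 26.9% in control libraries. In Dnmt1 KO libraries from day 6 this median was 4.55% to 5.88%. The whole genome was at 71.4% to 79.0% in control and 24.1% to 25.5% in Dnmt1 KO from day 6.

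**Figure D4:**
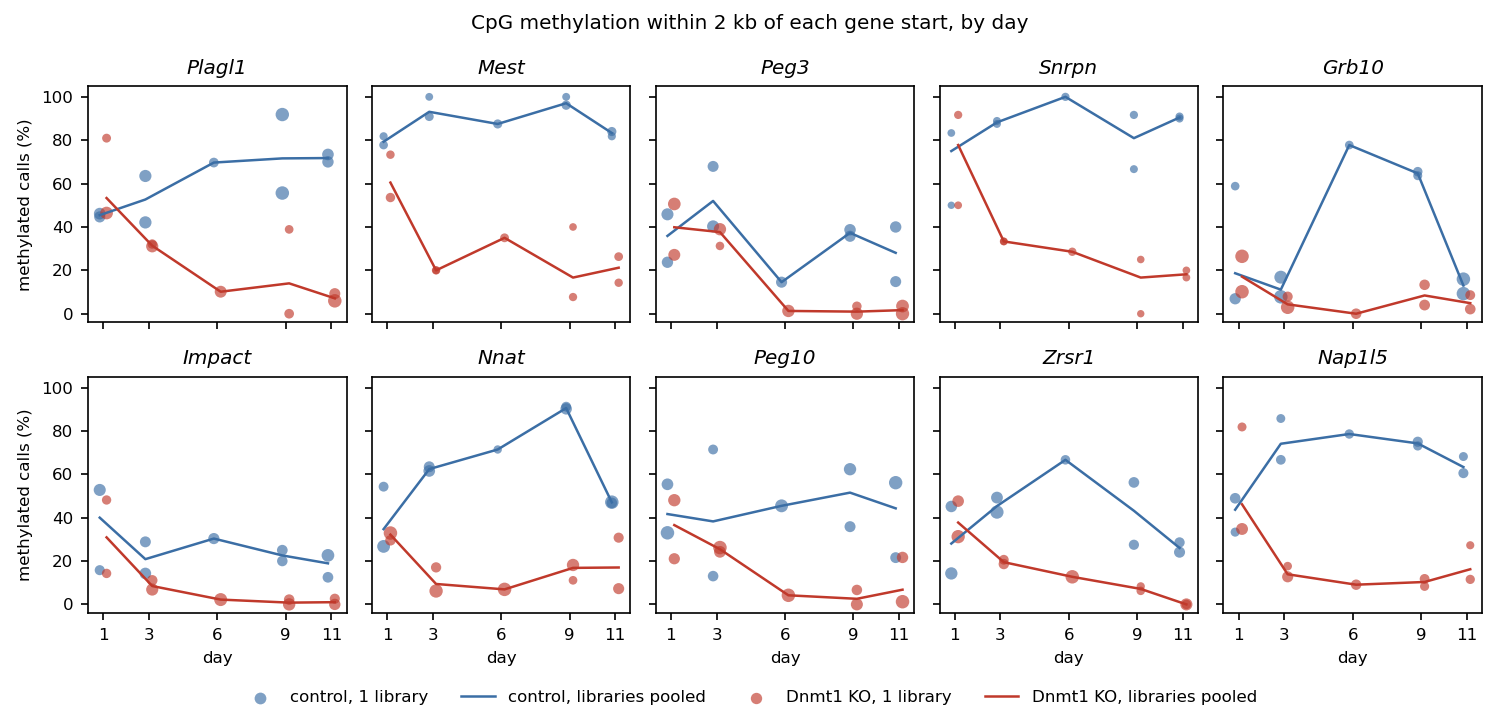
Methylated share of calls (%) within 2 kb of each gene start by day, for each control (blue) and Dnmt1 KO (red) library (points, larger with more calls up to 100) and for the libraries of a day pooled (lines). Peg3 is at 37.6% in Dnmt1 KO at day 3 and at 0.962% to 1.66% from day 6, and the Grb10 and Impact control libraries reach down to 6.90% and 12.5%.

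Differences between genotypes and days were tested with a quasi-binomial model fitted to all 12071 gene starts with at least 10 calls in every library. To be called, a gene start needed 10 points or more of difference and, after Benjamini-Hochberg adjustment, a p below 0.05. Mest and Snrpn had as few as 5 and 2 calls in a library and were not tested, which leaves 8 members. At day 1, 0 of the 12071 gene starts and so 0 of 8 members were called between Dnmt1 KO and control, with 971 gene starts and 0 members at an unadjusted p under 0.05. In limma on the percent 14 gene starts were called at day 1, none of them a member.

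At day 3, 2 of 8 members were called lower than control, against 26.1% of all gene starts tested. Nnat was at 17.1% and 6.19% in the 2 Dnmt1 KO libraries and at 63.5% and 61.5% in control, a difference of -53.0 points (SE 8.35, adjusted p = 0.00103 in the quasi-binomial model). Nap1l5 was at 12.7% and 17.6% in Dnmt1 KO and at 85.7% and 66.7% in control, a difference of -60.2 points (SE 11.7, adjusted p = 0.00564). The Nnat call was lost without Dnmt1 KO replicate 2 (adjusted p = 0.0585) and the Nap1l5 call without Dnmt1 KO replicate 1 (adjusted p = 0.0905). The median difference was -17.8 points over the 8 members and -15.5 over all gene starts tested.

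Against the day 1 cells of the same genotype, 1 of 8 members was called lower at day 3, beside 16.7% of all gene starts tested. Of the 8, 0 were called higher, beside 0.00828%. The member was Nnat, from 32.9% and 29.5% to 17.1% and 6.19% (-22.8 points, SE 6.72, adjusted p = 0.0334), and it was not called when any of these 4 libraries was left out (adjusted p = 0.0595 to 0.426). Nap1l5 differed by -32.3 points with an adjusted p of 0.0522 in the quasi-binomial model, and by the same amount with 0.0343 under a replicate block.

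Among the gene start windows, that of Peg3 had the largest share of its pooled control level left at day 3. Its 2 Dnmt1 KO libraries were at 50.6% and 27.1% at day 1, 31.3% and 39.0% at day 3, 1.28% at day 6, 0% and 3.45% at day 9, and 3.53% and 0% at day 11. Day 3 thus overlapped day 1 and the control range, whereas all libraries from day 6 were under 4%. The Dnmt1 KO day 3 calls were uneven over the window. In order of position, the 500 bp bins before the start had 11 of 16, 6 of 12, 0 of 9 and 0 of 11 methylated calls. Those after the start had 13 of 14, 0 of 10, 0 of 4 and 5 of 17, so few reads carry the Peg3 level. The day 3 level of Peg3, 37.6% (95% exact interval 27.8% to 48.3%), was 104% of its pooled control level. The share was 50.4% for Plagl1, 57.2% for Peg10, 51.3% for Zrsr1 and 16.8% to 38.2% for the other 6 members. Against the control libraries of the same day, at 67.9% and 40.3%, Peg3 differed by -14.4 points and was not called (adjusted p = 0.356 in the quasi-binomial model). The internal start of Snrpn was likewise not lower at day 3, at 45.7% (16 of 35 calls) against 35.8% in pooled control. From day 3 to day 11 Peg3 differed by -36.0 points (SE 9.28, adjusted p = 0.0709 in the quasi-binomial model), so it was not called, and it was called with a replicate block (adjusted p = 0.0300). Only 4 of 12071 gene starts (0.0331%) were called lower between these days, and 585 had an unadjusted p under 0.05. Whether Peg3 lost its methylation later than other members was not tested.

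At day 6 there was 1 library per genotype, so the test compared 2 single libraries, assumed to vary like those of the other days. It called 7 of 8 members lower, beside 28.8% of all gene starts tested. Nap1l5 was at 9.09% in Dnmt1 KO and 78.6% in control (-69.5 points, SE 14.4, adjusted p = 0.0110 in the quasi-binomial model). Plagl1 was at 10.1% and 69.7% (adjusted p = 0.0281) and Peg10 at 4.20% and 45.5% (adjusted p = 0.0246). Grb10 was at 0% of 46 calls and 77.8% of 18 calls (adjusted p = 0.0123), the highest control value of that gene. Peg3 was at 1.28% and 14.5%, its lowest control value, and was not called (-13.3 points, SE 8.93, adjusted p = 0.174). The 2 libraries did not read the same CpGs: at dense CpGs of Plagl1, Grb10 and Nnat control had 0 calls and Dnmt1 KO had 19, 36 and 62. Over the other CpGs Plagl1 was at 69.7% in control and 14% in Dnmt1 KO, Nnat at 71.4% and 2.56%, and Grb10 at 77.8% and 0 of 10 calls.

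At day 9, 7 of 8 members were called lower, beside 37% of all gene starts tested. Nnat differed most, from 90.2% and 91.2% in control to 18.2% of 77 calls and 2 of 18 calls in Dnmt1 KO (-73.7 points, SE 7.95, adjusted p = 9.32e-05 in the quasi-binomial model). Peg3 was at 38.7% and 35.7% in control and 0% and 3.45% in Dnmt1 KO (-36.3 points, SE 8.26, adjusted p = 0.00404). Zrsr1, with 16 and 12 calls in its Dnmt1 KO libraries, was at 6.25% and 8.33% against 56.2% and 27.5% in control and was not called (adjusted p = 0.0779). The Grb10 call (-56.3 points, adjusted p = 0.00616) rested on control libraries at 63.6% and 65.5%, which have 22 and 29 calls. Neither had a call at a CpG with 25 or more CpGs within 250 bp, where control days 3 and 11 had 198 and 189 calls at 1.52% and 3.17%. At the other CpGs of Grb10 control was at 64.7% on day 9 and 53.3% on day 3, and Dnmt1 KO on day 9 was at 12.1%.

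At day 11, 7 of 8 members were called lower, beside 34.6% of all gene starts tested, and 0 of 8 higher, beside 0.00828%. Plagl1 was at 73.4% and 70% in control and at 9.26% and 5.94% in Dnmt1 KO (-64.7 points, SE 9.26, adjusted p = 0.000578 in the quasi-binomial model). Zrsr1 was at 28.6% and 24.1% in control and 0% in both Dnmt1 KO libraries, with 30 and 72 calls (-26.0 points, SE 7.76, adjusted p = 0.0101). Impact was at 12.5% and 22.6% in control and at 0% and 2.63% in Dnmt1 KO (-17.9 points, SE 6.16, adjusted p = 0.0354). Peg10 differed by -37.5 points (adjusted p = 0.00973), with Dnmt1 KO libraries at 1.24% and 21.7% that overlap the lower control library at 21.6%. Grb10, at 15.9% and 9.26% in control, differed by -8.13 points and was not called (adjusted p = 0.326). Of its control calls on that day 189 were at dense CpGs, and over the other CpGs it was at 45.6% (26 of 57 calls) in control and 6.38% (3 of 47) in Dnmt1 KO.

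The calls at days 9 and 11 depended on single libraries. At day 9 the number of members called was 4 without Dnmt1 KO replicate 2, 5 without Dnmt1 KO replicate 1, 5 without control replicate 1 and 8 without control replicate 2. At day 11 it was 4 without Dnmt1 KO replicate 1, 2 without Dnmt1 KO replicate 2, 6 without control replicate 1 and 2 without control replicate 2. Leaving out any 1 of these libraries lowered the count among the 12071 gene starts tested. It was 1159 to 3377 at day 9 and 1157 to 2473 at day 11. Whether the members lost calls more than other gene starts did was not tested. With at least 20 calls in every library Impact was not called at days 6 and 11 (adjusted p = 0.0502 at both in the quasi-binomial model), and with windows of 1 kb Zrsr1 was not called at day 6 (adjusted p = 0.143). With limma on the percent in place of the quasi-binomial model, 4, 6 and 3 of 8 members were called at days 6, 9 and 11, beside 28.1%, 32.3% and 27.7% of all gene starts tested.

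Set against all 9 control libraries, both day 3 libraries of Dnmt1 KO lay lower at 4 of the 8 members tested (Plagl1, Impact, Nnat and Nap1l5), beside 43.7% of all gene starts tested. The 5 Dnmt1 KO libraries from day 6 on lay below all 9 at 5 of 8 (Plagl1, Peg3, Impact, Zrsr1 and Nap1l5), beside 40.1% of all gene starts tested. Peg3 libraries were at 0% to 3.53% in this group and Impact libraries at 0% to 2.63%, and Nap1l5 libraries at 8.33% to 27.3%. At Nnat the groups overlapped, with the lowest control library at 26.7% and the highest of these Dnmt1 KO libraries at 30.8%. Within control cells 0 members and 0 gene starts were called between day 11 and day 1, with 2 members and 1032 gene starts at an unadjusted p under 0.05. The 2 were Plagl1, at 71.8% on day 11 and 45.5% on day 1, and Impact, at 18.9% and 40%.

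The pooled levels reached are listed without a test, and each mixes dense and other CpGs of its window. In Dnmt1 KO days 6 to 11, Plagl1 had 0 of 107 methylated calls at CpGs with 25 or more CpGs within 250 bp. Its bin 1000 to 500 bp before the start had 8 of 41. In Dnmt1 KO days 6 to 11, Impact was at 1.29% (4 of 309 calls) and Peg3 at 1.38% (5 of 363). Peg10 was at 5.04%, Grb10 at 5.38%, Zrsr1 at 6.67%, Plagl1 at 9.12%, Nap1l5 at 11.5% and Nnat at 13.4%. Single libraries carried some of these levels. Zrsr1 was at 1.54% without the day 6 library (2 of 130 calls), Peg10 at 2.53% without day 11 replicate 2 (10 of 396), Grb10 at 3.37% without day 9 replicate 1 (6 of 178) and Peg3 at 0.719% without day 11 replicate 1 (2 of 278). The exact intervals of Impact (0.354% to 3.28%) and Peg3 (0.449% to 3.18%) overlap each other, and those of Plagl1 (5.99% to 13.2%), Nap1l5 (from 6.72%) and Nnat (9.74% to 17.9%) do too. Mest and Snrpn, whose gene starts lack dense CpGs, were at 23.9% (17 of 71 calls) and 22.6% (7 of 31). As a share of the control level, between 3.82% (Peg3) and 28.4% (Grb10) was left, and for Zrsr1, Peg10, Grb10 and Peg3 these shares rest on the single libraries named above.

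**Figure D5:**
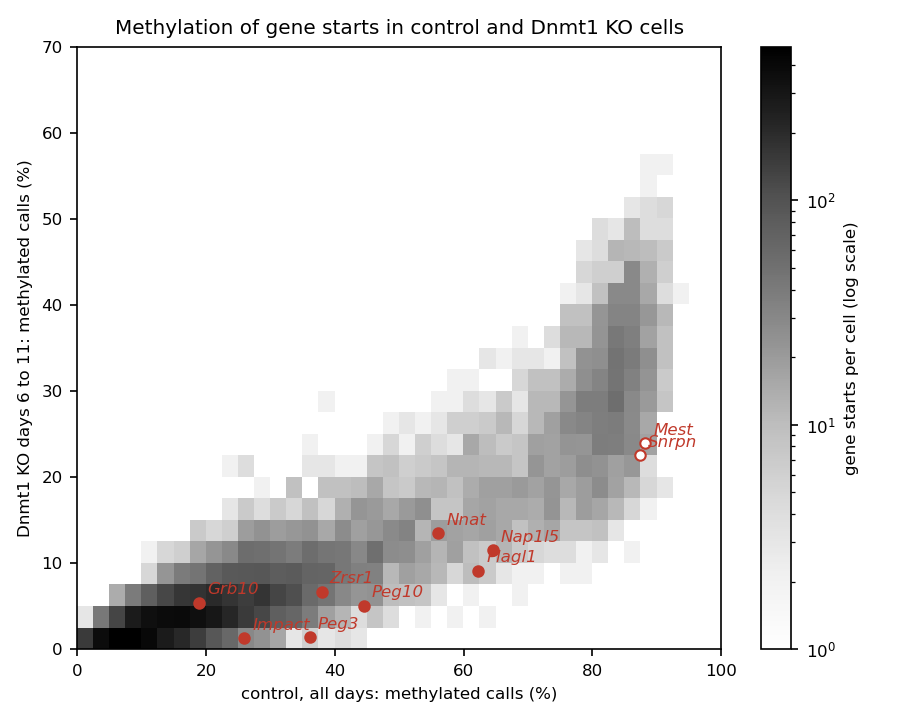
Methylated share of calls (%) in Dnmt1 KO days 6 to 11 against control for 12071 gene starts (grey cells, darker with more gene starts on a log scale) and the 10 imprinted gene starts (red, open where not tested). Peg3 and Impact lie at the lower edge at 36.1% and 25.9% in control, and Mest and Snrpn among the highly methylated starts.

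Set beside the 2618 gene starts tested with a control level of 30% to 70%, the late levels of the 6 members in that range were low or in the middle. That group had a median of 41.9% in control and 10.6% in Dnmt1 KO days 6 to 11, with quartiles of 7.10% and 15%. Peg3, Peg10 and Zrsr1 were below the lower quartile, and Plagl1, Nap1l5 and Nnat were between the quartiles. The gene starts whose levels over the 10 genotype and day groups were most like the mean of the members were Gm14005 (mean absolute difference 2.89 points over 10 groups, of 11224 gene starts compared), Nfatc2 (3.79), Catsperg2 (3.94), Slc29a3 (4.08) and B3gnt3 (4.25). The closest member itself was Peg10 at 4.35 points. In the bins at 30% to 70% of these 5 gene starts, 33.7% of 380 control pairs were discordant, where unlinked calls would give 46.3%.

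Other genes known for maternal methylation were followed as a list of 9, of which Kcnq1ot1 and Peg13 were not found by name in the annotation. The other 7 were at 24.5% (Slc38a4) to 84.0% (Usp29) in control and at 0% (Nespas, 193 calls) to 19.7% (Usp29) in Dnmt1 KO days 6 to 11. Sgce faces Peg10 and its window overlaps that of Peg10 almost entirely, at 44.7% and 5.09%. Of the 4 with enough calls, none was called at day 3 (beside 26.1% of all gene starts tested), 2 at day 6 (Nespas and Sgce, beside 28.8%) and 3 at days 9 and 11 (Nespas, Slc38a4 and Sgce, beside 37% and 34.6%). Since Sgce repeats the calls of Peg10, 3 of the 4 are separate from the members. Mcts2 was not called at any day. Nespas was at 47.8% on control day 1 and 21.5% on control day 11, and at 0% in Dnmt1 KO from day 6 (-21.5 points at day 11, SE 7.04, adjusted p = 0.0126 in the quasi-binomial model).

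Genes that hold or face a member had starts of their own with other levels. Commd1, which holds Zrsr1 in an intron, was at 20.1% in control and 2.84% in Dnmt1 KO days 6 to 11, and it was called at no day. Herc3, which holds Nap1l5, was at 17.0% and 5.26%, and Blcap, which holds Nnat, was at 62.0% and 22.4%. Neither of these had enough calls to be tested.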

How the data were processed

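Whole-genome bisulfite sequencing of 18 libraries was analysed, grouped by genotype and day from the labels. According to their methods, the authors used Trim Galore for trimming and Bismark for alignment of read pairs to NCBIM37, removed duplicates and extracted CpG calls. The submitters' processing notes give Bismark 0.12.3, another version than the methods. The deposited tables hold counts of methylated and unmethylated calls for each covered cytosine and strand, with a percent that equals the methylated share of the counts. Any minimum coverage before deposition is not given in the sources used here. Between 0.101% and 0.120% of listed cytosines lay outside a CpG of the reference and were left out.

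Calls on both strands were summed from 2 kb before to 2 kb after the start of each GENCODE vM1 gene. Bins of 500 bp needed 20 calls. Replicates were pooled for single genes and kept apart for the 10 genes together. Levels have 95% exact (Clopper-Pearson) intervals. The test was a quasi-binomial model with 1 level per group of genotype and day, a likelihood ratio F test between 2 groups and a Pearson dispersion moderated with squeezeVar of limma 3.58.1 in R 4.3.3. It was fitted to the 12071 gene starts with at least 10 calls in every library, with Benjamini-Hochberg adjustment over all of them, and tested on simulated data. There it was slightly liberal: among unchanged gene starts, somewhat more unadjusted p-values than the nominal share lay under 0.05 and a few were called, so calls near the threshold are less firm. All simulated gene starts had the same setting of spread, so how liberal the test is at members with a higher spread was not tested. The moderated prior dispersion was 2.62, and the members' own dispersions were 2.63 to 13.2. Moderation lowered them to 2.63 to 5.56, with Peg10 going from 13.2 to 5.56 and Plagl1 from 8.19 to 4.16. The members' p-values thus use a spread borrowed in part from all gene starts, which is smaller than their own. Labels do not say whether replicates are separate cultures, so p-values measure the spread between these libraries only. Tables were handled in Python 3.11.15 with numpy 2.4.6, pandas 2.3.3 and scipy 1.17.1, and figures were drawn with matplotlib 3.10.9.

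The members, the gene lists and the tests were chosen with earlier results of these data known, and support nothing by their choice. All members were to be named, together with the 9 other maternally methylated genes, the 3 genes that hold or face a member (by counts and examples), the 5 gene starts most alike among those with at least 200 calls in each genotype, 5 stem cell markers and Dnmt1 for coverage. Alternatives were other minimums of calls, other windows, limma on the percent, a replicate block and leaving out libraries. The internal starts, levels of single genes without each library and the restriction of neighbouring calls to bins were added after seeing the data.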

Additional observations from a re-analysis of the deposited data

How the results depend on the processing

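Levels rest on few reads: 1 library held 298 to 691 calls over the 10 windows and 2 to 161 at a single gene, so a level of 1 gene in 1 library is coarse, and with 1 to 2 libraries per group many calls hang on 1 library. Of the member differences, 100 of 132 kept their direction and side of the threshold when 1 library was left out and 208 of 225 did under the other alternatives. Both counts include differences not called with all libraries, which had no call to lose. Day 6 could not be checked by leaving out a library. Of the 110 member levels recomputed, 99 moved by less than the spread between libraries. The cause of the changes below was not tested, except where fewer or more gene starts were tested.

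Calls over all gene starts were 0, 3155, 3477, 4461 and 4178 for Dnmt1 KO against control at days 1, 3, 6, 9 and 11, 2021 for Dnmt1 KO day 3 against day 1, 4 for day 11 against day 3 and 0 within control. With at least 20 calls in every library, which tests fewer gene starts and 2 members, the first 6 became 2, 465, 447, 652, 608 and 328, and that within control 1. With at least 5 calls, which adds Mest, days 3 to 11 gave 7836, 8187, 10677 and 10032, and day 3 against day 1 gave 5014. With windows of 1 kb, which also leaves 2 members tested, days 1 to 11 gave 11, 133, 134, 199 and 170, day 3 against day 1 gave 130 and control 3. With the adjusted p alone, day 1 gave 11, day 11 against day 3 gave 16 and control 1. Without cytosines of over 20 calls, day 11 against day 3 gave 2. With limma on the percent, day 1 gave 14 and day 11 against day 3 gave 2. When 1 library was left out, calls ranged from 0 to 3 at day 1, 599 to 1712 at day 3, 1159 to 3377 at day 9, 1157 to 2473 at day 11 and 170 to 1012 for day 3 against day 1.

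Replicate numbers are shared between groups, and the deviations of same-numbered libraries had correlations of -0.0134 to 0.0201 over 28 pairs of groups. A correlation drops any shift common to a whole library, and each gene start has few calls. Whether same-numbered libraries shared a culture or batch was therefore not tested. A replicate block gave 1, 3269, 3535, 4527 and 4288 calls against control at days 1, 3, 6, 9 and 11. Among the members it added Nap1l5 for day 3 against day 1 and Peg3 for day 11 against day 3, and changed no other call.

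Peg10 changed sign with windows of 1 kb, to 8.56 points for Dnmt1 KO against control at day 3 and 12.4 for Dnmt1 KO day 3 against day 1. Without 1 library Peg10 ranged from -46.0 to 12.4 points at day 3 against control and from -22.6 to 4.39 for Dnmt1 KO day 3 against day 1, and Peg3 ranged from -13.0 to 10.5 in the latter. The level of the 10 windows, 44.5% in control, was 31.1% over CpGs with 25 or more CpGs within 250 bp and 56.6% as a mean of bins. In Dnmt1 KO days 9 and 11 it was 6.63%, and 9.95% over all transcript starts. It was 3.52% and 4.10% over CpGs with at least 25 or 15 CpGs within 250 bp. As a mean of bins it was 9.32%, and with equal weight for the 10 genes 9.16%. The share of discordant pairs was 7.32%, and 5.60% in bins at 30% to 70% with at least 20 CpGs.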
